A study of Homo sapiens with 5 samples.

Results

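The annexins are proteins that bind phospholipid membranes when calcium rises. Their shared core is built of annexin repeats, which hold the calcium-binding loops, and their N-terminal regions differ and bind partners such as S100 proteins. In epithelial cells they are known for roles in membrane repair, secretion and vesicle traffic, and for the control of protease activation at the cell surface. The 10 genes described here (ANXA1 to ANXA8, ANXA10 and ANXA11) were chosen by name: every transcript that GENCODE v44 assigns to one of these genes was taken, and its reads were summed per gene. They are 10 of 61220 genes with an identifier in the tables, and 9 of the 13492 genes with enough reads to test.

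NCI-H1975 and HCC827 are 2 established human lung adenocarcinoma cell lines, grown separately without treatment to near confluence. Poly(A) RNA of each line, with a different mix of synthetic spike-in RNAs (sequins) in each, was combined by mass in 5 ratios, from NCI-H1975 alone (100:0) through mixtures with 25, 50 and 75% HCC827 (75:25, 50:50, 25:75) to HCC827 alone (0:100). Each ratio gave 1 PCR-amplified nanopore cDNA library, and all mixtures were drawn from 1 RNA of each line. The p-values below therefore measure the scatter of these 5 libraries about a line, not the spread between cultures, and no value has a replicate of its own. In bulk RNA, fewer cells of a type and less RNA per cell cannot be told apart.

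Total counts ran from 2932250 to 4058751 per library, spike-ins included. The mitochondrial share rose with the HCC827 share from 5.64% to 8.85% of the total, while the mean length of the transcripts that received reads fell from 2581 to 2180 bases. The scaling factors ran the same way, from 1.16 to 0.870, so that the median slope of all genes was -0.035 after scaling and -0.44 with library totals alone. Among the markers, all 6 epithelial genes were read in every library (summed level 5575 CPM in pure NCI-H1975 and 15794 CPM in pure HCC827). EPCAM was level, at 376 and 371 CPM, while the other epithelial genes were higher in pure HCC827. The 3 lung lineage genes summed to 43.6 and 371 CPM, of which NAPSA had 2.06 and 257 CPM. Of 11 markers of other cell types, 9 had under 10 reads in every library and 5 of these (PTPRC, CD3E, LYZ, DCN and HBB) had none. The summed level of those 11 went from 215 to 103 CPM and was carried by COL1A1 and CD68. These went opposite ways, COL1A1 from 157 to 7.06 CPM and CD68 from 56.6 to 94.4 CPM. The part of mitochondrial share, mean transcript length and markers in the results below was not tested, except that a fit with the length trend removed is given where it changed a call.

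Levels are CPM, read counts brought to a common library size, after scaling by the trimmed mean of M values (TMM). Slopes give the log2 difference of pure HCC827 from pure NCI-H1975 along a fitted line, with its standard error, from edgeR's quasi-likelihood test with Benjamini-Hochberg adjustment over all 13492 genes. A level that follows the mass share is straight in CPM but bent in log2, and the test counts that bend as scatter. For large differences the slope can thus fall short of the log2 ratio of the pure libraries. It was -2.40 beside -2.71 for ANXA8, and -2.93 beside -3.57 for ANXA6 with a floor of 3 reads. Large differences can also fail to pass: COL1A1, 22.2-fold lower in pure HCC827, had an edgeR adjusted p of 0.0783. A gene is said to have risen or fallen towards HCC827 where the adjusted p was under 0.05. Of the 9 annexin genes tested, 3 rose (ANXA3, ANXA4 and ANXA11), 4 fell (ANXA5, ANXA6, ANXA7 and ANXA8) and 2 did not pass (ANXA1 and ANXA2). Over all genes 46.2% passed, 23.7% rising and 22.5% falling, so 7 of 9 has to be read against a background in which such differences between the lines were common. The median annexin slope was -0.17, beside -0.035 over all genes.

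**Figure D1:**
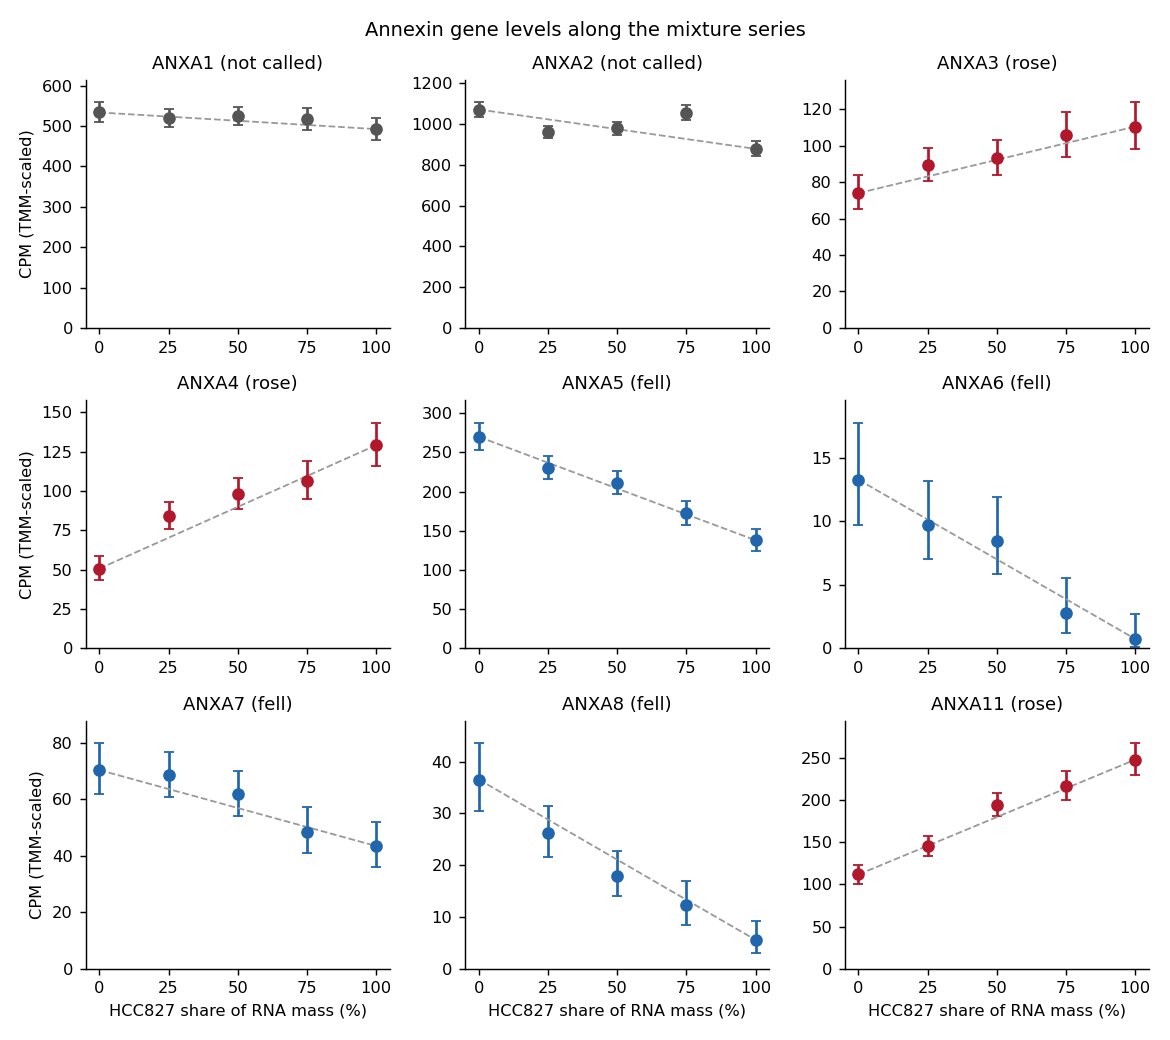
Level of each annexin gene (vertical axis, TMM-scaled CPM from 0) against the HCC827 share of the RNA mass (horizontal axis, percent), 1 point per library. Bars are 95% Poisson intervals for counting error only, the dashed line joins the pure libraries, and red, blue and grey mark genes that rose, fell or were not called; ANXA4 goes from 50.7 to 129 CPM and ANXA5 from 270 to 138 CPM.

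ANXA2 and ANXA1 were the most abundant annexins in all 5 libraries. ANXA2 (ENSG00000182718.18, GRCh38 chromosome 15, 60347134 to 60402883, minus strand) pairs with S100A10 at the plasma membrane, where the complex binds plasminogen and its activator. It had 1072, 961, 979, 1056 and 879 CPM from NCI-H1975 alone to HCC827 alone, the order used for every series of 5 values here. These levels rest on 3638, 4149, 3815, 3022 and 2363 reads. The lowest value was in pure HCC827 and the inner libraries did not run in order. Pure NCI-H1975 was 1.22-fold higher than pure HCC827 (95% counting interval 1.16 to 1.29). The fitted slope of -0.17 ± 0.11 (95% interval -0.40 to 0.056) did not pass (edgeR adjusted p = 0.209). It passed in 3 of 16 alternatives, falling by 0.25 without the 25:75 library (edgeR adjusted p = 0.0487, in a range of 9.85e-05 to 0.928 over the alternatives). With the length trend removed the slope was -0.36, and with library totals, where all genes shift, it was -0.58.

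ANXA1 (ENSG00000135046.14, chromosome 9, 73151865 to 73170393, plus strand) is known as a glucocorticoid-induced protein whose N-terminal peptide signals through formyl peptide receptors. Its level was 534, 519, 524, 517 and 492 CPM along the series, from 1811, 2242, 2041, 1478 and 1324 reads. The 5 values lie close together and not in order. The slope of ANXA1 was -0.10 ± 0.11 with an interval of -0.32 to 0.13 (edgeR adjusted p = 0.485). That interval covers the scatter of these libraries under TMM scaling and does not bound the difference between the lines. The slope passed in 2 of 16 alternatives, at -0.28 with the length trend removed and at -0.50 with library totals. The adjusted p lay between 3.34e-04 and 0.782 over the alternatives.

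ANXA11 and ANXA4 were the annexins with the steepest rise towards HCC827. ANXA11 (ENSG00000122359.18, chromosome 10, 80150889 to 80205572, minus strand) has a long disordered N-terminal region and is known for tethering RNA granules to lysosomes. It was read 379, 626, 757, 620 and 666 times, at 112, 145, 194, 217 and 248 CPM. Every step towards HCC827 was upward. The pure HCC827 library was 2.22-fold higher than pure NCI-H1975 (95% counting interval 1.95 to 2.52), and the slope of 1.14 ± 0.12 passed with an edgeR adjusted p of 8.20e-08 and in all 16 alternatives.

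ANXA4 (ENSG00000196975.16, chromosome 2, 69644425 to 69827112, plus strand) is an annexin of secretory epithelia that binds to and orders membranes. Its 172, 363, 382, 305 and 347 reads gave 50.7, 84.1, 98.0, 107 and 129 CPM. These too rose at each step, with the widest step between pure NCI-H1975 and the 75:25 mixture. Pure HCC827 was 2.55-fold higher (counting interval 2.11 to 3.08) and the slope was 1.16 ± 0.16 (edgeR adjusted p = 8.57e-06). The call held in 15 of 16 alternatives and was lost where 100:0 and 75:25 were set against 25:75 and 0:100 (difference 0.80, edgeR adjusted p = 0.0583, in a range from 2.90e-12 over the alternatives). ANXA4 overlaps AAK1 on the opposite strand, which had 857 reads beside the 1569 of ANXA4. Whether the counting used the strand is not given in the sources used here, so reads of that overlap may not be separable.

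ANXA3 (ENSG00000138772.13, chromosome 4, 78551747 to 78610451, plus strand) rose less. Its levels were 73.9, 89.2, 93.2, 106 and 110 CPM, from 251, 385, 363, 302 and 297 reads. The values climbed at every step, and the pure libraries lay 1.49-fold apart (counting interval 1.26 to 1.77). Its slope was 0.55 ± 0.14 (edgeR adjusted p = 0.00184). This call was lost in 3 of 16 alternatives: 0.15 with library totals, 0.40 in the comparison of library pairs and 0.34 with protein-coding transcripts alone (edgeR adjusted p = 0.372, 0.102 and 0.140, the lowest of all alternatives being 0.00111). More of its reads were given to a retained-intron transcript than to its main coding transcript, as described further on.

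On the other side, ANXA8 and ANXA6 showed the steepest falls and ANXA5 and ANXA7 shallower ones. ANXA5 (ENSG00000164111.15, chromosome 4, 121667946 to 121696995, minus strand) binds exposed phosphatidylserine and is the protein used to label apoptotic cells. It went from 270 CPM in pure NCI-H1975 through 231, 211 and 172 to 138 CPM in pure HCC827, on 916, 996, 823, 493 and 371 reads. Each library with more HCC827 RNA had the lower level. The difference was 1.96-fold, NCI-H1975 being higher (counting interval 1.73 to 2.21), with a slope of -0.94 ± 0.12 (edgeR adjusted p = 6.22e-07).

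ANXA7 (ENSG00000138279.16, chromosome 10, 73375101 to 73414076, minus strand), also called synexin, is known for promoting membrane fusion in secretion. Its 239, 296, 241, 139 and 117 reads stood for 70.4, 68.6, 61.8, 48.6 and 43.5 CPM. The fall was small over the first pair of libraries and larger after the 50:50 mixture. The pure libraries differed 1.62-fold (counting interval 1.29 to 2.04) and the slope was -0.74 ± 0.17 (edgeR adjusted p = 8.78e-04).

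ANXA8 (ENSG00000265190.7, chromosome 10, 47460162 to 47484158, minus strand) is an annexin of squamous and other epithelia. The 5 libraries held 124, 113, 70, 35 and 15 reads of it, or 36.5, 26.2, 17.96, 12.2 and 5.58 CPM. Pure NCI-H1975 was 6.55-fold higher (counting interval 3.82 to 12.1). The slope was -2.40 ± 0.29 (edgeR adjusted p = 3.66e-07).

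ANXA6 (ENSG00000197043.15, chromosome 5, 151100706 to 151157815, minus strand) carries an additional set of annexin repeats: its main coding sequence is 2019 bases, against 960 to 1515 for the main coding sequences of the other members. It was scarce, with 45, 42, 33, 8 and 2 reads, or 13.3, 9.73, 8.47, 2.80 and 0.744 CPM. Only 2 reads in pure HCC827 stand behind the ratio of 17.8, NCI-H1975 being higher, whose counting interval runs from 4.66 to 152. With pure HCC827 set to a floor of 3 reads the ratio is 11.9. The fitted slope was -2.93 ± 0.55 (edgeR adjusted p = 1.28e-04). ANXA5, ANXA7 and ANXA8 kept their calls in all 16 alternatives and ANXA6 in the 15 that could test it.

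ANXA10 (ENSG00000109511.12, chromosome 4, 168092537 to 168187736, plus strand), an annexin of the stomach lining, had 1 read in pure HCC827 and none in the other 4 libraries. It was not tested.

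**Figure D2:**
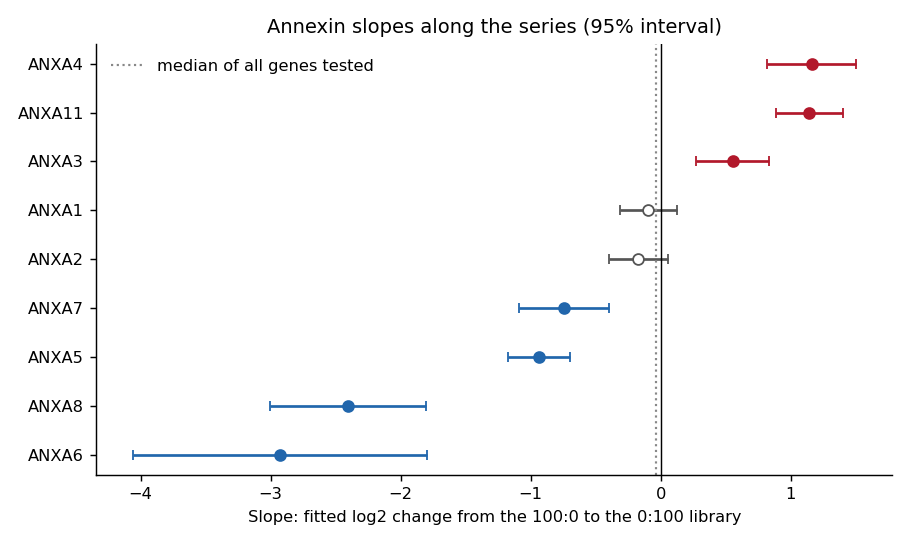
Fitted log2 slope from pure NCI-H1975 to pure HCC827 (horizontal axis) of the 9 annexin genes tested (vertical axis), with 95% intervals from the edgeR fit. Red, blue and grey mark genes that rose, fell or were not called; the interval of ANXA6, on 2 to 45 reads per library, is the widest at -4.06 to -1.80, and those of ANXA1 and ANXA2 include 0.

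The summed annexin level, of which ANXA1 and ANXA2 were the largest parts in every library, was 2232, 2134, 2188, 2238 and 2046 CPM along the series, with no order. As a share of each library's total the sum was 0.258, 0.227, 0.220, 0.208 and 0.178%, which fell at every step without the scaling. The make-up of the annexin reads shifted: ANXA11 went from 5.00% of them in pure NCI-H1975 to 12.1% in pure HCC827, and ANXA5 from 12.1% to 6.74%. ANXA2 took between 42.9% and 48.0% in every library. These are shares of reads, not corrected for length.

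All 7 genes that passed had their 5 levels in order of the mixture, and the other 2 tested genes did not. Among all genes that passed, 55.4% were in order, and among all genes tested 28.5%. Where the pure libraries are compared alone, 4 annexins lay at least 2-fold apart (ANXA4 and ANXA11 higher in HCC827, ANXA6 and ANXA8 lower), beside 34.6% of all genes tested (16.2% higher and 18.4% lower in HCC827). ANXA5 at 1.96-fold was just outside that limit and ANXA11 at 2.22-fold just inside it.

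Per kilobase of transcript, weighted by the reads of each transcript, the mean level of ANXA2 was 618 CPM per kilobase and that of ANXA1 was 316. ANXA5 followed at 127. The next 4 genes had means closer together: ANXA3 at 43.8 (34.3 to 51.2 over the libraries), ANXA11 at 36.6 (22.3 to 49.4), ANXA4 at 32.9 (17.8 to 45.3) and ANXA7 at 29.5 (21.9 to 35.5). These ranges follow the mixture. Per kilobase, ANXA3 lay above ANXA11 in all 5 libraries, though in pure HCC827 by less than counting error. ANXA7 was the highest of the 4 in pure NCI-H1975, though above ANXA3 (35.5 and 34.3) by less than counting error, and the lowest in pure HCC827. ANXA8 at 10.2 and ANXA6 at 2.59 CPM per kilobase were lower than these. A nanopore read can span a whole transcript, so division by length may set genes with long transcripts too low, which was not tested. Without that division the mean of ANXA11 was 183 CPM, near ANXA5 at 204 and above ANXA3 at 94.5, ANXA4 at 93.7 and ANXA7 at 58.6.

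The 4 annexins with 200 or more reads in the pure libraries summed and at least 1.5-fold apart allowed the inner libraries to be placed between the ends, 0% being the level of pure NCI-H1975 and 100% that of pure HCC827. Fitted over 10019 genes together, the 75:25, 50:50 and 25:75 libraries lay at 32.7, 55.4 and 78.2% HCC827, above the mass shares of 25, 50 and 75%. ANXA11 lay at 24.5 ± 5.59, 60.8 ± 6.93 and 77.3 ± 8.46% (counting SE). ANXA4 lay at 42.7 ± 7.34, 60.4 ± 8.56 and 71.4 ± 10.1%. Both lay within 1.5 standard errors of the all-gene position in each inner library. The all-gene estimate uses library totals, and on that scale ANXA11 lay at 29.0 ± 9.44, 76.5 ± 11.2 and 83.9 ± 12.5%, and ANXA4 at 57.5 ± 11.5, 74.4 ± 12.8 and 75.6 ± 13.7%. There ANXA4 in the 75:25 library was the single point over 2 standard errors from the all-gene position.

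The 1.5-fold limit was added after the data had been seen and brought in the other two genes. ANXA5 lay at 29.7 ± 7.48, 44.5 ± 7.15 and 73.9 ± 7.34%. ANXA7 lay at 6.83 ± 21.7, 31.8 ± 19.4 and 81.1 ± 19.8%, with wide errors. On library totals ANXA5 lay at 34.8 ± 5.46, 52.1 ± 4.92 and 79.1 ± 4.68%, and ANXA7 at 19.6 ± 13.8, 44.4 ± 11.9 and 83.2 ± 11.2%.

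**Figure D3:**
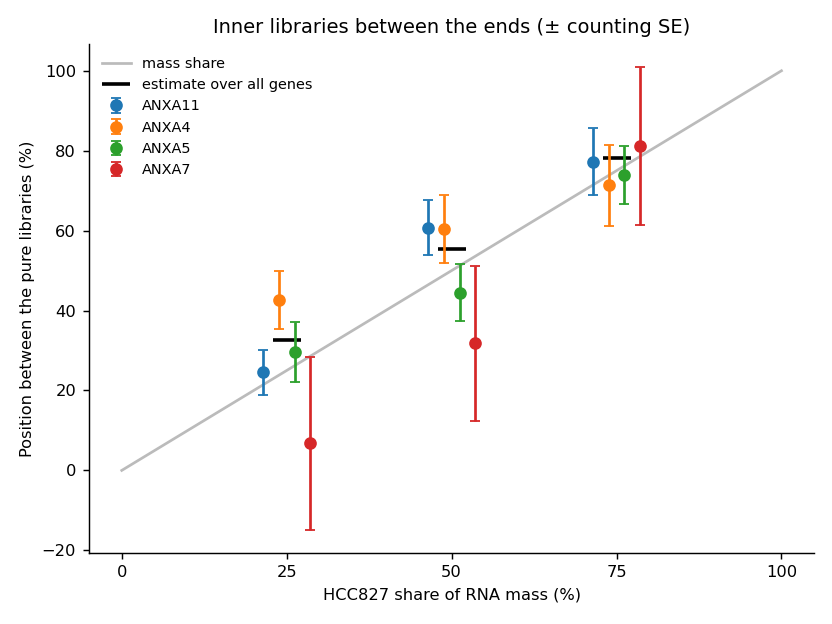
Position of each inner library between the pure libraries (vertical axis, percent, 0 being pure NCI-H1975 and 100 pure HCC827) against the HCC827 share of the RNA mass (horizontal axis, percent) for ANXA11, ANXA4, ANXA5 and ANXA7, with counting standard errors; the grey line is the mass share, black dashes are the all-gene estimate, and points are shifted sideways to be told apart. ANXA11 lies at 24.5, 60.8 and 77.3%, and the bars of ANXA7 are the widest.

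Some annexin reads could belong to a near-identical copy. ANXA8L1 is a copy of ANXA8 on the same chromosome: over 1908 aligned bases, ANXA8-205 and ANXA8L1-204 differ at 9 (99.5% identity), and over the 981 coding bases at 5. The following stretch is shown because no other 90 coding bases hold more of these differences. Both lines run 5′ to 3′ over coding positions 484 to 573 of the GENCODE v44 transcripts, with the bases that differ in capitals.
ANXA8-205: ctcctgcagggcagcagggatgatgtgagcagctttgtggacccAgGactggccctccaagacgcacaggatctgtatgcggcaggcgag
ANXA8L1-204: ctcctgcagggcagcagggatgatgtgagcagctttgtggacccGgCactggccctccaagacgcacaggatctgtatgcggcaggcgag
A read has to be right at these few bases to be told apart, so the split between the copies is uncertain. ANXA8L1 had 82, 63, 37, 28 and 13 reads, and fell as ANXA8 did (slope -2.09 ± 0.35, edgeR adjusted p = 3.51e-05). Summed, the pair had 60.7, 40.8, 27.5, 22.0 and 10.4 CPM, with a slope of -2.28 ± 0.23. The summed pair, which does not depend on the split, fell as each copy did. The share of ANXA8 in the pair's reads (60.2, 64.2, 65.4, 55.6 and 53.6%) does depend on it.

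ANXA2 has processed copies that lack its introns. ANXA2P2 differs from the coding sequence of ANXA2-204 at 16 of 1017 bases (98.4% identity), and the stretch at coding positions 154 to 243 is shown because 5 of these differences fall in it.
ANXA2-204: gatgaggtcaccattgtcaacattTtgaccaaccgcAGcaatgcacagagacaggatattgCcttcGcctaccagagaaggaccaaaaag
ANXA2P2-201: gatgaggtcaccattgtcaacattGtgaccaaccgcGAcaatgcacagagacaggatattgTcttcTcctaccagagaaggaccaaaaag
ANXA2P2 had 2, 0, 1, 1 and 2 reads and the copies ANXA2P1 and ANXA2P3 had none, against 2363 or more for ANXA2 in each library. At the depth of these libraries the copies took almost none of the reads of this sequence.

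The 10 genes have 120 transcripts in the tables, of which 100 had a read and 34 had enough to test. Of those 34, 8 rose and 7 fell with an edgeR adjusted p under 0.05 over all transcripts, beside 34.3% of all 31758 transcripts tested (17.7% rising, 16.5% falling). Transcripts annotated as protein coding took 83.8% of the annexin reads. Transcripts of coding genes with no defined coding sequence took 9.47%, retained-intron transcripts 4.95% and transcripts annotated for nonsense-mediated decay 1.79%. How reads that fit several transcripts were assigned is not given in the sources used here, so shares of transcripts that hold the same bases are less certain than sums per gene.

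**Figure D4:**
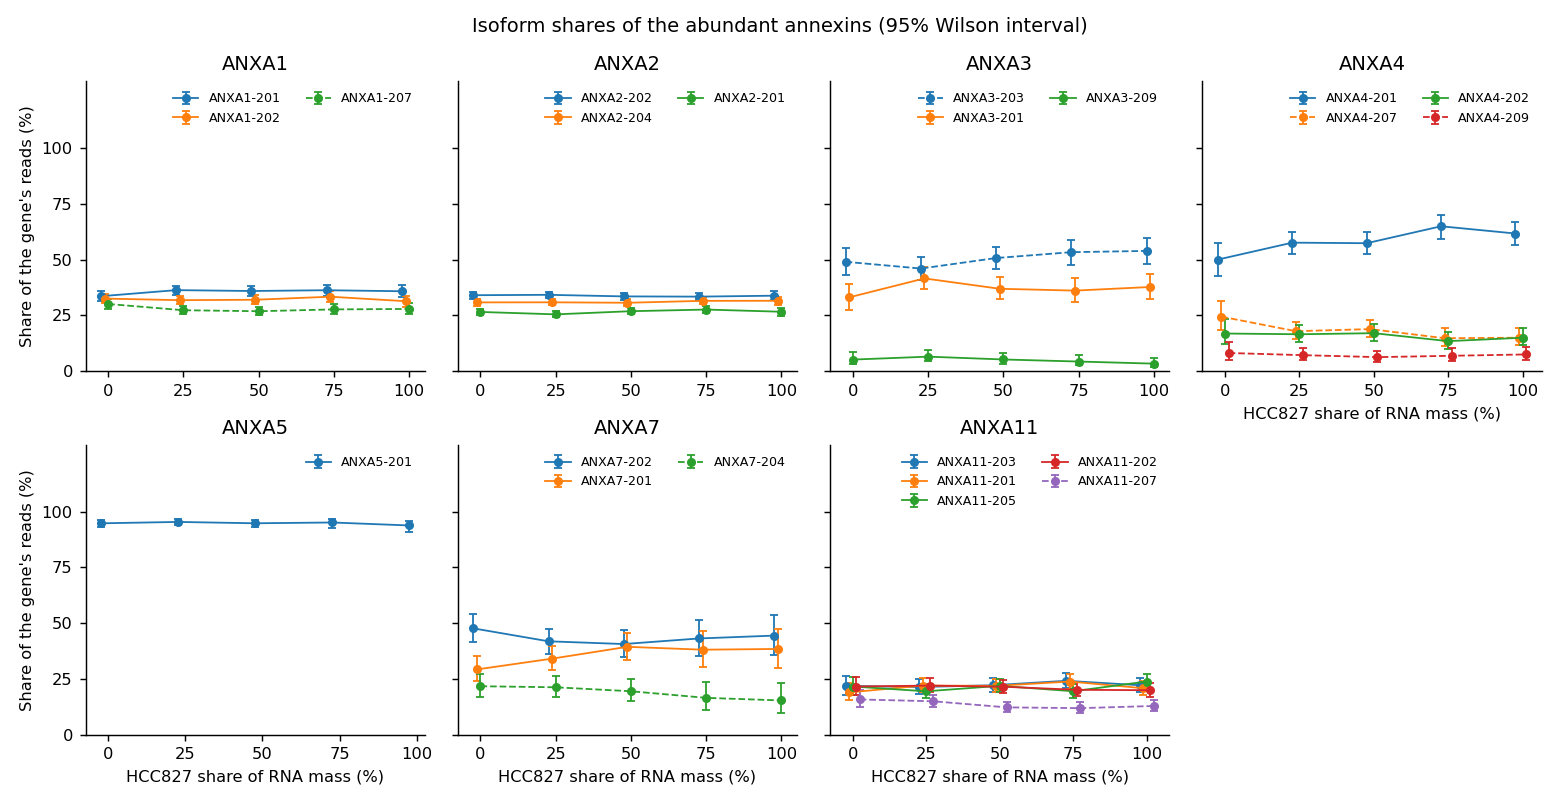
Share of a gene's reads taken by each transcript with at least 5% of them (vertical axis, percent) against the HCC827 share of the RNA mass (horizontal axis, percent), for the annexins with 100 or more reads in every library. Bars are 95% Wilson intervals and dashed lines are transcripts not annotated as protein coding; ANXA3-203 lies between 46.0 and 53.9%, and the 3 leading transcripts of ANXA2 stay nearly level.

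ANXA7, ANXA4 and ANXA2 have isoforms that differ in which coding exon or exon end is used. The bases concerned are shown because they are among those that separate these isoforms. The isoforms differ elsewhere too: ANXA4-201 has 2651 bases in all and ANXA4-202 has 1414. A share of a pair therefore need not rest on the bases shown. Capitals mark the bases that are in the named transcript and absent from the other, and lower case marks the 12 bases on either side of them where printed. ANXA7-201 holds an exon at chr10:73396044-73396109 (minus strand, 66 bases) that ANXA7-202 skips. ANXA4-201 runs through chr2:69806433-69806498 (plus strand, 66 bases), where ANXA4-202 ends its exon earlier. ANXA2-201 begins its coding sequence with 43 coding bases at chr15:60397871-60397913 (minus strand) that ANXA2-204 lacks.
ANXA7-201: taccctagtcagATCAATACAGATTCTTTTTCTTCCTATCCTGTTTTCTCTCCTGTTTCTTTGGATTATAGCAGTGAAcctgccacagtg
ANXA4-201: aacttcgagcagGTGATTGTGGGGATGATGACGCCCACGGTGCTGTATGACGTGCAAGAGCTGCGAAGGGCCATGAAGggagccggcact
ANXA2-201: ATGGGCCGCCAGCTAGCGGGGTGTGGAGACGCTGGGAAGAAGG
Both 66-base stretches keep the reading frame, since the coding sequences are 1464 and 1398 bases for ANXA7 and 963 and 897 for ANXA4.

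ANXA7-201, which holds the ANXA7 exon, was given 38.0% of the reads of its pair with ANXA7-202 in pure NCI-H1975 (95% Wilson interval 31.3 to 45.2). It was given 44.9, 49.2, 46.9 and 46.4% in the other 4 libraries, the last with an interval of 36.8 to 56.3. These transcripts also differ outside the exon, with 2174 and 2443 bases in all. The values are thus shares of assigned reads, and whether each read held the exon was not tested. The intervals of the pure libraries overlap. Within the gene, ANXA7-202 fell (slope -0.88 ± 0.23, edgeR adjusted p = 0.00289), as did ANXA7-204, a short transcript with no defined coding sequence (slope -1.29 ± 0.33, edgeR adjusted p = 0.00273). ANXA7-201 had a slope of -0.40 ± 0.26 that did not pass (edgeR adjusted p = 0.244). That these transcripts differed from one another in slope was not shown by the usage test given below.

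For ANXA4, the shorter isoform ANXA4-202 had 25.2, 22.3, 22.9, 17.2 and 19.5% of the reads of the pair, and 21.1% overall (interval 18.8 to 23.5). Both coding isoforms rose, ANXA4-201 by 1.37 ± 0.19 (edgeR adjusted p = 1.63e-06) and ANXA4-202 by 0.83 ± 0.31 (edgeR adjusted p = 0.0339). The retained-intron transcript ANXA4-207, with 15.8% of its bases in exons of the main transcript, took 24.4% of the gene's reads in pure NCI-H1975 (interval 18.6 to 31.4) and 15.0% in pure HCC827 (11.6 to 19.1). Its own slope of 0.47 ± 0.29 did not pass (edgeR adjusted p = 0.20).

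The share of ANXA2-201 beside ANXA2-204 was level. ANXA2-201 had 46.3, 45.2, 46.7, 46.7 and 45.8% of the reads of its pair with ANXA2-204, and every library's interval held the overall 46.1%. The pair had 1374 or more reads in each library. ANXA2-202, whose coding sequence is as long as that of ANXA2-204, took 33.4 to 34.2% of the gene's reads in every library. It is not counted in that pair. Of all the gene's reads, ANXA2-201 took 26.5% over the libraries together.

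ANXA3 had the highest share of retained-intron reads among the members, 52.9%, with ANXA4 next at 24.7%. ANXA3-203, a retained-intron transcript of 2 exons with 17.6% of its bases in exons of the main transcript, took 49.0, 46.0, 50.7, 53.3 and 53.9% of the gene's reads. The coding ANXA3-201 took 33.1, 41.6, 36.9, 36.1 and 37.7%. The rise passed for ANXA3-203 (slope 0.70 ± 0.18, edgeR adjusted p = 0.00229) and just missed for ANXA3-201 (slope 0.53 ± 0.21, edgeR adjusted p = 0.0504). In ANXA1, ANXA1-207, with 2 exons and no defined coding sequence, took 27.9% of the reads over all libraries, beside 35.6% for ANXA1-201 and 32.2% for ANXA1-202. Its share was 30.1% in pure NCI-H1975 (interval 28.0 to 32.2) and 27.9% in pure HCC827 (25.5 to 30.3).

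ANXA5 and ANXA11 differed in how their reads were given to transcripts. One transcript, ANXA5-201, took 93.8 to 95.4% of the ANXA5 reads in every library, and its slope was -1.005 ± 0.14, beside -0.94 for the gene. ANXA11 reads were spread nearly evenly over 4 coding transcripts with 21.0 to 22.4% each, of which 89.3 to 100% of the bases lie in exons of the main transcript. All 4 rose, with slopes of 1.16 for ANXA11-203, 1.19 for ANXA11-201, 1.21 for ANXA11-205 and 0.92 for ANXA11-202. The short ANXA11-207, with 13.4% of the reads, rose too (slope 0.72 ± 0.24, edgeR adjusted p = 0.0164). ANXA11 thus holds 5 of the 8 annexin transcripts that rose. Since these transcripts share most of their bases and the assignment of reads is not known, their even split and their slopes may not be separate results.

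A change of isoform shares along the series was tested in 8 annexins with edgeR's diffSpliceDGE and the Simes method over 7455 genes. None passed at an adjusted p of 0.05, and none had an unadjusted p under 0.05, beside 0.402% and 3.86% of all genes. The lowest unadjusted Simes p was 0.122, for ANXA4. The gene-level F test of the same fit called none either, with ANXA4 lowest at an adjusted p of 0.729 and ANXA7 next at 0.741. The falling share of ANXA4-207 had an unadjusted p of 0.0306 as a single transcript in the diffSpliceDGE fit, which did not carry the gene past the threshold.

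Genes that work with annexins were read from 6 lists. Their counts of calls stand beside the 46.2% of all genes tested that passed, 23.7% rising and 22.5% falling. Of 7 other annexin loci, 2 could be tested: ANXA8L1, given above, and ANXA2R, a gene described as an annexin A2 receptor. ANXA2R rose from 7.95 to 16.0 CPM (slope 1.18 ± 0.34, edgeR adjusted p = 0.00695), and missed with library totals at 0.78 (edgeR adjusted p = 0.0620). ANXA9 had 4 to 7 reads per library and ANXA13 at most 1.

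All 7 S100 and EF-hand partners were tested, 2 rose and 5 did not pass. S100A10, the partner of ANXA2, had 939, 897, 885, 892 and 769 CPM. Like ANXA2 it was lowest in pure HCC827, and its slope of -0.23 ± 0.11 did not pass (edgeR adjusted p = 0.0750), while without the 25:75 library it did at -0.28 (edgeR adjusted p = 0.0314, range over alternatives 1.68e-05 to 0.564). S100A11, the partner of ANXA1, had 692 to 771 CPM and a slope of 0.032 ± 0.11. S100A6 had 7221, 8214, 8923, 8114 and 9876 CPM (slope 0.36 ± 0.092, edgeR adjusted p = 0.00299). Its call was lost in 4 of 16 alternatives, at 0.25 without the pure HCC827 library, 0.22 in the comparison of library pairs, 0.024 with the length trend removed and -0.050 with library totals (edgeR adjusted p = 0.116, 0.396, 0.850 and 0.658). PEF1, an EF-hand protein that pairs with PDCD6, rose from 22.4 to 42.4 CPM (slope 0.91 ± 0.22, edgeR adjusted p = 0.00132), and held in 13 of 16 alternatives. It missed at 0.75 without pure HCC827, 0.67 in the comparison of library pairs and 0.51 with library totals (edgeR adjusted p = 0.0643, 0.0639 and 0.0526).

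In plasminogen activation, where the ANXA2 complex acts as a platform, 4 of 5 genes were tested, 1 rose and 1 fell. PLAT, tissue plasminogen activator, fell from 15.3 to 2.60 CPM on 52 to 7 reads (slope -1.99 ± 0.43, edgeR adjusted p = 5.90e-04), and missed in the comparison of library pairs at -1.34 (edgeR adjusted p = 0.0841). PLAUR, the urokinase receptor, had 48.9, 50.5, 69.5, 61.2 and 67.7 CPM (slope 0.49 ± 0.18, edgeR adjusted p = 0.0268). Its call was lost in 7 of 16 alternatives, with slopes from 0.081 (library totals) to 0.59 and adjusted p up to 0.723. These include the fits without either pure library or the 75:25 library, at 0.44 without 100:0, 0.59 without 0:100 and 0.41 without 75:25 (edgeR adjusted p = 0.130, 0.0712 and 0.102). PLG itself had no reads.

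None of the 4 genes for formyl peptide receptors and cytosolic phospholipase A2, which are linked to ANXA1, had enough reads to test. FPR1 had 3 to 10 reads per library and PLA2G4A had 2 to 11. FPR2 and FPR3 had none.

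For plasma membrane repair, 8 of 9 genes were tested, 3 rose, 4 fell and 1 did not pass. AHNAK, a large scaffold that binds the ANXA2 and S100A10 complex, fell from 399 through 339, 265 and 213 to 132 CPM (slope -1.52 ± 0.13, edgeR adjusted p = 3.10e-09). CHMP4B, an ESCRT subunit, rose from 143 to 282 CPM (slope 0.99 ± 0.12, edgeR adjusted p = 4.01e-07). The calpain subunits CAPNS1 and CAPN1 rose by 0.90 ± 0.11 and 0.56 ± 0.11 (edgeR adjusted p = 4.84e-07 and 2.53e-04). CAPNS1 was called in all 16 alternatives, and CAPN1 in 14, being lost at 0.15 with library totals and 0.42 in the comparison of library pairs (edgeR adjusted p = 0.264 and 0.0705). The genes that fell besides AHNAK kept their calls in 13, 11 and 8 of 16 alternatives. The list's median slope was -0.34, and its members went both ways.

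Of 5 genes that set where phosphatidylserine lies, all were tested, 1 rose, 3 fell and 1 did not pass. TMEM30A, the subunit that flippases need, fell from 105 to 46.9 CPM (slope -0.99 ± 0.16, edgeR adjusted p = 2.82e-05), and missed in the comparison of library pairs at -0.69 (edgeR adjusted p = 0.0697). ANO6, a scramblase, had 30.9, 34.1, 24.9, 25.5 and 12.6 CPM (slope -1.06 ± 0.28, edgeR adjusted p = 0.00383). The flippase ATP11A rose from 15.6 to 28.3 CPM (slope 0.80 ± 0.26, edgeR adjusted p = 0.0159). ANO6 was called in 14 of 16 alternatives and ATP11A in 12. Both lost their calls without pure HCC827, ANO6 at -0.54 and ATP11A at 0.54 (edgeR adjusted p = 0.202 and 0.278), and in the comparison of library pairs, at -0.76 and 0.56 (edgeR adjusted p = 0.115 and 0.132). With library totals the slope of ATP11A was 0.39 (edgeR adjusted p = 0.214), and the Wald test of DESeq2 gave 0.81 (DESeq2 adjusted p = 0.0747).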

How the data were processed

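Each library's deposited table lists an estimated count and a length for every transcript. The submitters' processing notes name GRCh38, minimap2 2.24 and Salmon 1.9.0; their roles and the annotation release are not given in the sources used here. Repeated identifiers (161) were summed and 2 values that were not whole were rounded. Of 227751 human transcripts, 224076 matched GENCODE v44, with 98.6% of human reads. Sequences are from the GENCODE v44 transcripts. Deposited lengths differ from v44 for some annexin transcripts, among them ANXA2-204, ANXA8-205 and several scarce ANXA2 transcripts.

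Genes with at least 10 reads in at least 2 libraries entered edgeR 4.0.16 (R 4.3.3; TMM, robust quasi-likelihood slope on the HCC827 mass fraction), as did transcripts. The scripts were tested on simulated data. Alternatives used DESeq2 1.42.0, limma 3.58.1, other scalings and filters, and each library left out. For the 2-fold limit, ratios of pure libraries were floored at 3 reads, which changed ANXA6 alone among the tested members; its ratio is given both ways. Intervals on shares and ratios cover counting error only, since PCR reads without molecular identifiers are not independent molecules.

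All 10 members were named. Listed genes past the threshold were named by smallest adjusted p, up to 4 per list, and transcripts were named where they took at least 5% of the reads of a member with at least 100 reads in every library. S100A10, S100A11, PLG, ANXA9, ANXA13 and the genes of the receptor list were named beside these after their values had been seen. The members and lists were chosen with earlier results of these data known. Single results of 2 listed genes, which count in their lists, are not reported here.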

Additional observations from a re-analysis of the deposited data

How the results depend on the processing

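No paired analysis was possible because each ratio has 1 library and all carry the same number. Leaving out each library in turn called 7 to 8 annexin genes, 11 to 15 transcripts and 0 genes by isoform usage. Setting 100:0 and 75:25 against 25:75 and 0:100 called 1 annexin gene (ANXA11) and 5 transcripts as rising. The falls of ANXA5, ANXA6, ANXA7 and ANXA8 kept their calls there. With library totals in place of TMM, 5 transcripts rose and 14 fell. On that scale slopes moved down in general, to an all-gene median of -0.44. Whether the 14 falls go beyond that shift was not tested. No share over all genes or transcripts is given for these settings, so the counts of calls here lack a background. Also with library totals, ANXA4 in 75:25 lay at 57.5%, ANXA11 in 50:50 at 76.5%, and the slope of S100A6 reversed to -0.050. With the length of the most read transcript, the levels per kilobase were 369 for ANXA1, 590.3 for ANXA2, 32.2 for ANXA3, 35.3 for ANXA4, 24.0 for ANXA7 and 27.2 for ANXA11, which put ANXA4 above ANXA3 and ANXA11. Over protein-coding transcripts alone, the shares were 52.1% for ANXA1-201, 36.4% for ANXA2-202, 79.5% for ANXA3-201, 78.9% for ANXA4-201, 99.04% for ANXA5-201, 54.7% for ANXA7-202 and 25.9% for ANXA11-203, since fewer reads form the denominator. The cause of the other changes was not tested. Depth limits ANXA6, ANXA8 and ANXA10 most, with 2, 15 and 1 reads in pure HCC827.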
